A study of Rattus norvegicus with 12 samples.

Results

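The effect of conjugated linoleic acid (CLA) given before birth was examined in the mesenteric lymph nodes of suckling rats that all received CLA by gavage after birth. The comparison takes the 3 arrays of group B and the 3 arrays of group C, 6 of the 12 arrays of the series, and they were chosen by their labels alone. All pups were Wistar rats at day 21 of age and each array measured the lymph node RNA of 1 pup. In group B the dams ate a diet with 1% CLA during the last 2 weeks of gestation, and the pups then received CLA daily by oral gavage for the 3 weeks of suckling. In group C the dams ate the standard diet and the pups received the same daily gavage for 3 weeks. The CLA was a mixture of 80% of the cis-9,trans-11 isomer and 20% of the trans-10,cis-12 isomer. Groups B and C therefore differ in exposure before birth and, with it, in the total length of supplementation, 5 weeks against 3. The study also reports a higher proportion of CLA in pup plasma at weaning in group B than in group C. The level of CLA at sampling was thus not matched either, and these differences cannot be told apart. The remaining arrays enter as context: group A had CLA only through the dam, in gestation and milk, while group D, the reference, was given no CLA (3 pups in each). The study's methods state that litters were evened to one size, which was also the number of pups in a group, and that the pups for the arrays were drawn at random from each group. Which dam each pup had, and its sex, are not given in the sources used here. All 3 pups of a group may thus be of 1 litter, in which case litter and diet cannot be told apart and p-values measure only the spread between littermates.

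CLA is a family of isomers of linoleic acid found in milk and in ruminant fat, and its isomers are known as ligands of the peroxisome proliferator-activated receptors (PPAR), which switch on genes of fatty acid storage and oxidation. The mesenteric lymph nodes drain the gut and are where antigen from food and microbes is presented to T and B cells. They lie embedded in fat, so a dissected node can carry adipocytes and other tissue of the mesentery along with lymphocytes. Fatty acids cross the placenta and can act on the fetus before its lymph nodes are filled with lymphocytes, which makes gestation and suckling separate windows of exposure.

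Every value below is a log2 intensity after quantile normalization over the 12 arrays, a step that gives all arrays 1 common distribution, and every difference is group B minus group C. Before normalization the array medians were 30.9, 30.3 and 19.3 in group B against 27.0, 22.6 and 20.2 in group C. The background of an array, read from probe sets for spike transcripts, was between 2.33 and 2.93 in these 6 arrays, and values up to it are called within background. All 9 B cell genes and all 18 T cell genes measured were above it in every array of group B or C, with Ms4a1, the gene of CD20, at 10.35 and 10.33 in groups B and C and Cd3g of the T cell receptor complex at 10.87 and 10.95. Ccl21, which draws T cells into lymph nodes, stood at 11.88 and 12.04, so the markers of the labelled tissue were present. Group D replicate 3 stood apart from the other pups of group D: the median absolute difference between arrays was 0.31 within the pair of replicates 1 and 2 but reached 0.58 with replicate 3. That pup is in neither group B nor group C, but its spread enters the variance of the test, and counts without it are given. Xist, which is transcribed from the inactive X chromosome, was at 11.21 in group C replicate 3 and between 0.00 and 1.87 in the other pups of groups B and C. Eif2s3y, a gene of the Y chromosome, was at 3.33 in that pup and between 8.61 and 8.90 in the other 5. By Xist and Eif2s3y that pup read as female and the other 5 as male, so sex was uneven between groups B and C. Group A replicate 3 and group D replicate 3 showed the same high Xist and low Eif2s3y, and results without these 3 arrays are given where they differ.

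The difference between the pups with and without gestational CLA was small across the array. Of 31042 probe sets tested, 1 passed at an adjusted p under 0.05 with a difference of at least 2-fold (0.00322%). Without adjustment, a p under 0.05 together with 2-fold was met by 401 probe sets higher in group B (1.29%) and by 359 lower (1.16%), and 1241 (4.0%) had such a p at any fold. The median difference of all probe sets was -0.001 and the median absolute difference 0.20. An absolute difference of 2-fold or more between the group means, tested or not, was seen in 2728 probe sets (8.79%), of which 1807 were not above background in every array of either group. Among the 22748 probe sets above background in every array of group B or of group C, the median absolute difference was 0.15 and 4.05% reached 2-fold. Among the 3563 probe sets with a mean of 8 or more, it was 0.08 and 11 reached 2-fold.

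The interval of the difference says how small it can be taken to be. The 95% confidence interval lay wholly inside 2-fold in either direction for 14891 probe sets (48.0%). Of those above background this share was 65.2%, and of those with a mean of 8 or more it was 96.8%. With 1 probe set for each of 14217 genes it was 64.2%. Of these genes 50.9% had a difference above 0, and 1.96% were higher and 1.93% lower at an unadjusted p under 0.05. These are the shares to hold beside the counts of gene lists below. For dim probe sets the data set hardly any limit: of the 8294 that were not above background in every array of either group, 0.81% had an interval inside 2-fold, since the typical half-width was 1.74. For most well-expressed genes a 2-fold difference between groups B and C was therefore outside the interval. For smaller differences, and for most dim genes, the intervals set no such limit. Because the pups of a group may share a litter, this limit is on the difference between these pups and not on the effect of gestational CLA.

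**Figure D1:**
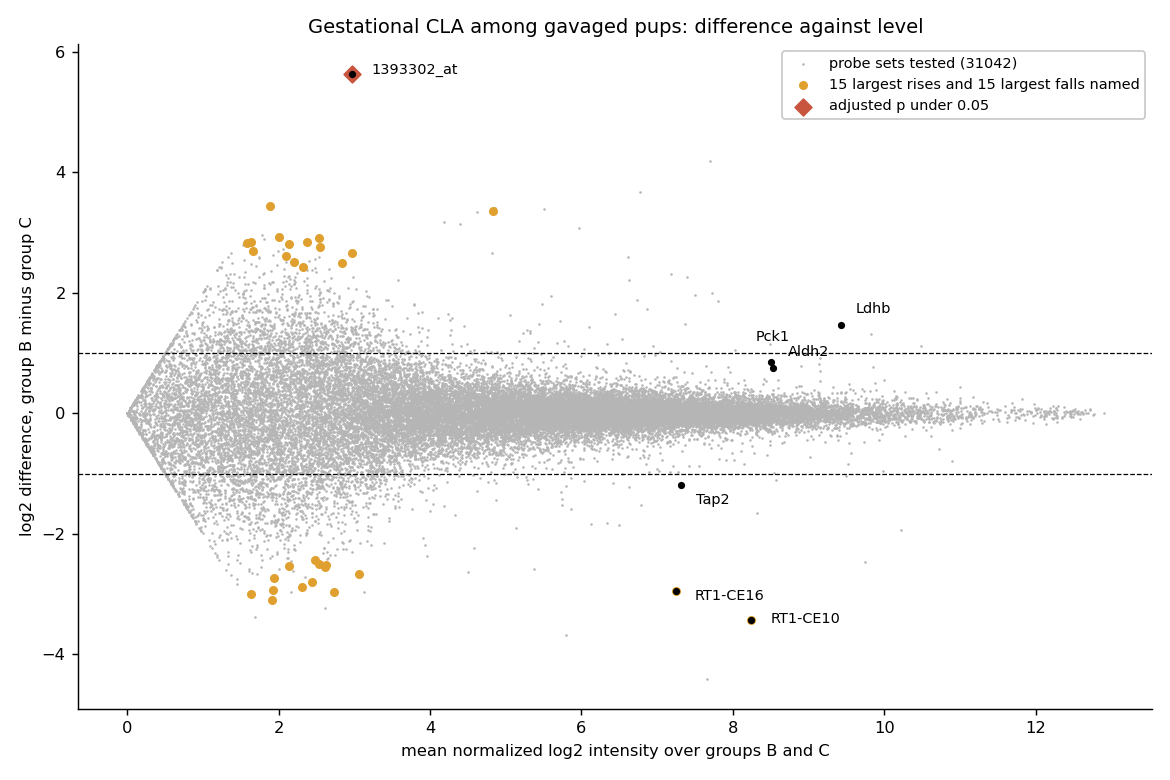
Difference between group B and group C (log2, vertical axis) against the mean normalized log2 intensity over both groups (horizontal axis), 1 point per probe set, with dashed lines at 2-fold. The cloud narrows from left to right, 11 of 3563 probe sets with a mean of 8 or more lie outside the dashed lines, and most of the named largest differences sit among the dim probe sets.

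Other pairs of groups give the scale for these figures. The median absolute difference was 0.35 between groups B and D, 0.37 between C and D, 0.52 between A and D, 0.64 between A and B and 0.67 between A and C, against 0.20 between B and C. The counts of probe sets passing the same call were 5 (0.0161%), 16 (0.0515%), 2569 (8.28%), 4966 (16%) and 5247 (16.9%) in that order. The figures with group D mix unlike pups. Between single arrays, group D replicate 3 was 0.32 to 0.34 from the pups of groups B and C in median absolute difference. Replicates 1 and 2 of group D were 0.51 to 0.59 from them. Groups A and B had CLA for the same total of 5 weeks, with gestation included in both, and differed in the route during suckling. These pairs of groups share arrays with one another and are set side by side only as a description.

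**Figure D2:**
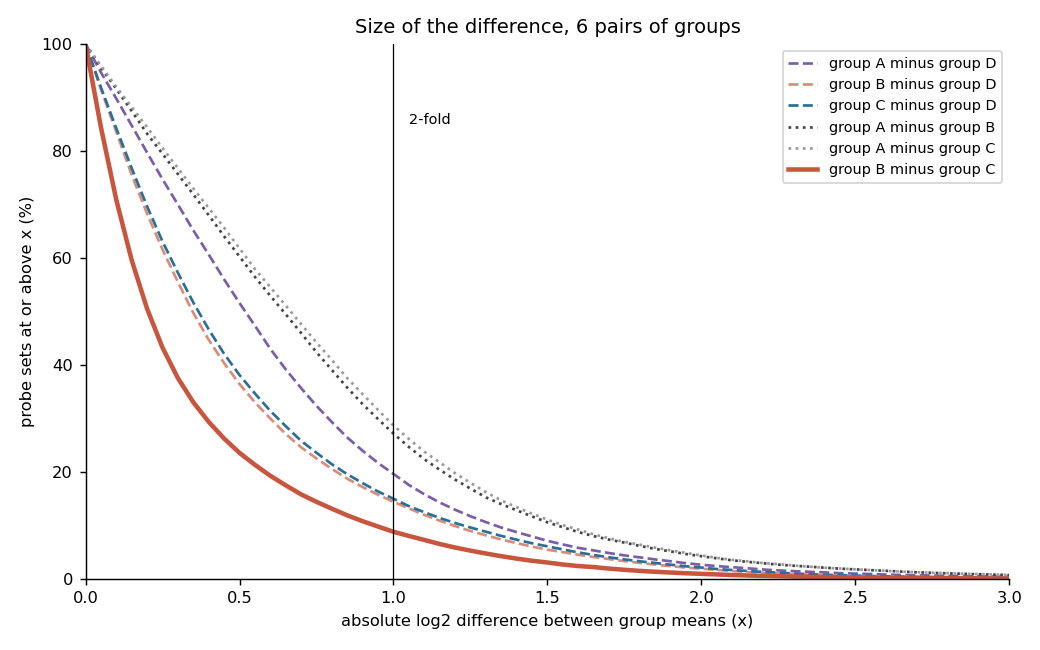
Percent of probe sets (vertical axis) whose absolute log2 difference between group means is at or above the value on the horizontal axis, 1 line per pair of groups, with a line at 2-fold. The solid line of group B minus group C lies lowest, with 8.79% at 2-fold, and the dotted lines of group A against groups B and C lie highest.

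Pups of different groups were nearly as alike as pups of the same group. Between single arrays the median absolute difference was 0.29 to 0.32 within group B, 0.31 to 0.32 within group C and 0.29 to 0.34 between a pup of group B and a pup of group C. The share of probe sets 2-fold apart was 17.1% to 18.3%, 18.0% to 18.6% and 17.5% to 18.9%. The ratio of the mean array distance between the groups to that within them was 1.008, the largest of the 20 ways to divide the 6 arrays, and the exact permutation test (one-sided) gave p = 0.1, the smallest that 3 against 3 allows. The same ratio was 1.07 for groups B and D, 1.08 for C and D, 1.15 for A and D and 1.32 for A against B and against C. For groups B and C the ratio was below 1 without group B replicate 1 (0.999) or replicate 3 (0.994) and with the values as deposited (0.996). It was larger, 1.08 with a floor of 32 and 1.06 without the dimmest 40%, each at p = 0.1 in the exact permutation test.

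**Figure D3:**
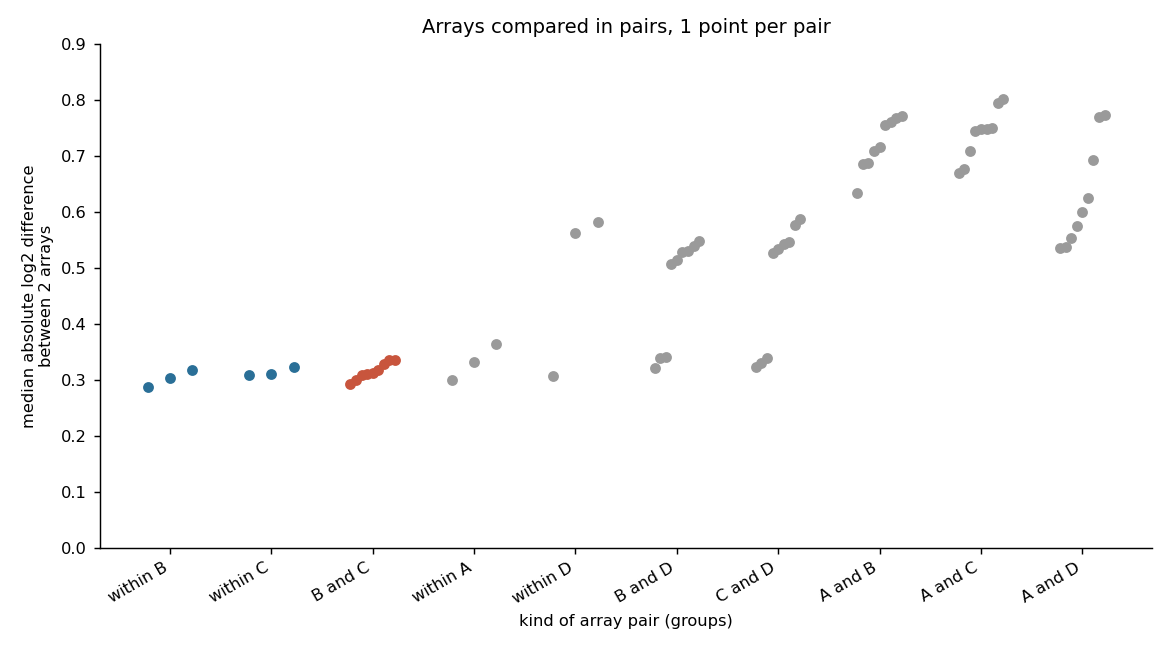
Median absolute log2 difference between 2 arrays (vertical axis), 1 point per pair of arrays, by the groups of the pair (horizontal axis). The 9 pairs of group B with group C, at 0.29 to 0.34, overlap the pairs within groups B and C, and the pairs of group A with other groups lie highest.

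The one probe set that passed was 1393302_at, to which the annotation used here gives no gene. It read 5.22, 5.97 and 6.18 in group B against 0.00, 0.48 and 0.00 in group C. It was present in every pup of groups A and D, at 6.25 to 6.73 and 5.40 to 6.38, and within background in all 3 pups of group C. The level was at least 8.73-fold higher in group B than in group C (difference 5.63, standard error 0.36, adjusted p = 3.49e-05 from limma). Against group D the difference was -0.01 in group B and -5.64 in group C. So it is group C that stood apart at this probe set, and not the pups with gestational CLA. It rests on 1 probe set without a gene name and passed in 20 of 21 alternatives, the exception being a floor of 32, which lies near its level.

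Behind it came a gap, with the next smallest adjusted p at 0.195. Named genes at 0.195 to 0.211 were chosen for the text by that order, after their values were seen. The B subunit of lactate dehydrogenase, Ldhb, had levels of 10.25, 10.18 and 10.06 with gestational CLA and 8.78, 8.72 and 8.58 without. The groups did not overlap (difference 1.47, interval 0.90 to 2.03, adjusted p = 0.211). Group D was at 10.44, 10.28 and 9.31, and group A at 9.13 to 9.99, so again the pups of group C were the lowest of the series. Aldh2, the mitochondrial aldehyde dehydrogenase, was at 8.96, 8.92 and 8.83 against 8.05, 8.31 and 8.12 (difference 0.74, adjusted p = 0.211). All pups of groups A and D, at 8.65 to 9.63, were also above those of group C. Lysmd4 had a difference of 1.33 (adjusted p = 0.195) on 1 probe set, with 0.18, -0.15 and -0.54 on its other 3. Srp72, a subunit of the signal recognition particle, had -0.88 (adjusted p = 0.211) on 1 probe set but 0.05 and -0.08 on the other two. The probe sets of these last genes thus did not move together.

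The major histocompatibility complex, named RT1 in the rat, held several of the widest gaps among well-expressed genes. Class I molecules show peptides from inside the cell to cytotoxic T cells, and class II molecules show peptides taken up from outside to helper T cells. Of 37 probe sets annotated to RT1 genes, none passed. All pups of group B were below all of group C at 11 of them, and above at 3, beside 5.46% and 5.28% of all probe sets. At 2-fold and an unadjusted p under 0.05 the split was even, with 6 lower and 6 higher in group B, beside 1.16% and 1.29% of all probe sets. Because these genes are near-identical copies and vary between haplotypes, and because a short probe may read several of them, the gene behind each probe set is uncertain.

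Class I probe sets differed in both directions. RT1-CE10 was lower, at 6.61, 6.35 and 6.63 in group B against 10.26, 9.67 and 9.94 in group C (difference -3.43, standard error 0.60, adjusted p = 0.211). The levels formed a low and a high set across the whole series: group D replicates 1 and 2 were low like group B, at 6.82 and 6.59, while group D replicate 3, at 9.77, and group A, at 10.27 to 10.61, were high like group C. The unnamed probe set 1388202_at, read as -4.40, had the same arrangement, with 4.70, 5.64 and 6.05 in group B against 10.24, 9.40 and 9.96 in group C. RT1-CE12 followed it too, at 9.89, 8.84 and 9.03 against 11.32, 11.12 and 11.15. RT1-CE16 was at 3.47, 6.85 and 7.0 in group B against 8.89, 8.39 and 8.89 in group C, and RT1-A3 on its brighter probe set at 4.38, 3.84 and 4.35 against 6.45, 5.43 and 6.41. The groups did not overlap at any of these 5 probe sets. Higher in group B were the class I genes RT1-A, at 8.63, 7.45 and 7.65 against 4.25, 7.54 and 4.15 (difference 2.60, adjusted p = 0.706), and RT1-T24-4, at 9.50, 8.17 and 8.16 against 2.16, 9.04 and 3.59 (difference 3.68, adjusted p = 1). At both, group C replicate 2 read like group B and the groups overlapped. RT1-CE10 passed in 4 of 22 alternatives. Its adjusted p was 9.28e-07 without group D replicate 3, 0.000324 without the 3 arrays high in Xist, 0.00123 in a fit of groups B and C alone and 0.00764 with 6 arrays normalized alone, while all others left it above 0.05, up to 0.527.

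Loading of peptide onto class I uses the transporter subunits Tap1 and Tap2. Tap2 was at 6.78, 6.94 and 6.43 in group B against 8.19, 7.73 and 7.84 in group C, with no overlap (difference -1.20, adjusted p = 0.211). Its partner Tap1 differed by 0.01 on its brighter probe set. B2m, the light chain of class I molecules, stood at 12.47 ± 0.07 and 12.44 ± 0.01 (mean ± SD, n = 3), and the immunoproteasome subunit Psmb9 differed by -0.06. RT1-CE5, a further heavy chain, was at 7.96, 7.13 and 7.38 against 8.95, 8.81 and 9.69 on its brightest probe set (-1.66, adjusted p = 0.981). It and Tap2 were the 2 of the 14 genes on the class I list at an unadjusted p under 0.05, both lower. The other 12 had intervals inside 2-fold. Of all 14217 genes 1.93% were lower at that p and 64.2% had such an interval. Of the 14, 6 were higher and 8 lower, with a median of -0.01. Differences on this list ran from -1.66 to 0.38. The list therefore holds none of the class I genes with wider gaps named above, and its counts do not describe them.

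Class II probe sets did not share one direction. RT1-Ba, an alpha chain, had 4 probe sets: the brighter pair read 1.12 and 1.32 higher in group B and the dimmer pair -1.02 and -0.82. RT1-Bb, its beta chain, was on 1 probe set at 10.45, 9.37 and 9.57 in group B against 3.79, 9.59 and 3.45 in group C. Group C replicate 2 thus read like group B there, and the difference of 4.18 came from the other two pups. On the other probe set of RT1-Bb, group B replicate 1 alone was low, at 3.20, beside 11.13 and 11.19 in its group and 10.58 to 11.21 in group C. Without group C replicate 2, RT1-Bb joined the calls, as RT1-A did. The protease Ctss, which trims peptide ahead of class II, was at 10.21, 10.30 and 10.43 against 9.92, 10.10 and 9.82 (0.36, adjusted p = 0.847). RT1-Da, the invariant chain Cd74 and the peptide exchanger RT1-DMb differed by 0.07, 0.13 and 0.20, and 9 of the 12 genes of the class II list had intervals inside 2-fold.

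Of the mast cell proteases, 3 read higher in every pup of group B than in any pup of group C. Mast cells are resident cells of gut and mesentery that release histamine and proteases. Cma1, a chymase, was at 6.58, 6.50 and 7.36 in group B against 4.84, 5.57 and 5.74 in group C. Cpa3, carboxypeptidase A3, was at 6.97, 6.65 and 7.82 against 5.62, 6.01 and 6.13. Tpsab1, a tryptase, was at 6.32, 6.06 and 7.15 against 4.43, 0.62 and 4.39. The differences were 1.43 (standard error 0.39, adjusted p = 0.724), 1.23 (0.33, adjusted p = 0.724) and 3.36 (0.99, adjusted p = 0.848). None passed, and the last rests in part on group C replicate 2, within background. A further mast cell protease, Mcpt1, pointed the other way, at 4.40, 4.10 and 5.70 against 5.35, 5.87 and 6.28 (difference -1.10, interval -2.20 to 0.00). Kit, the stem cell factor receptor of mast cells, differed by -0.33, the IgE receptor gene Ms4a2 by 0.38, and Hdc, which makes histamine, by 0.00. Of the 9 mast cell genes, 3 were higher and none lower at an unadjusted p under 0.05, where 1.96% of all 14217 genes were higher and 1.93% lower, and the median was 0.39 beside 0.005 for all genes. Summed over the list, the linear intensity of the pups of group B was 363 to 711 and that of the pups of group C 237 to 316, beside 304 to 341 with CLA from the dam alone and 149 to 314 in the reference pups. A linear sum weighs bright genes most, and this one holds the 3 proteases named above as higher. It therefore largely restates them and is no separate evidence for the other genes of the list. In whole nodes, fewer cells of a type and less RNA per cell cannot be told apart.

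Eicosanoids are signalling lipids made from fatty acids. Alox15, a lipoxygenase that acts on arachidonic and linoleic acid, was at 6.38, 7.21 and 7.15 in group B against 5.83, 6.15 and 5.31 in group C, without overlap (difference 1.15, adjusted p = 0.895). Pups of group A, at 7.72 to 8.06, were higher still, and those of group D, at 4.25 to 5.85, were near group C. Hpgd, which breaks down prostaglandins, differed by -0.79 and the secreted phospholipase Pla2g2a by -2.12 from low levels, neither passing. At an unadjusted p under 0.05, 1 of the 17 genes of the list was higher and 2 were lower, and its median was 0.05. The shares over all 14217 genes were 1.96% higher and 1.93% lower, with a median of 0.005.

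**Figure D4:**
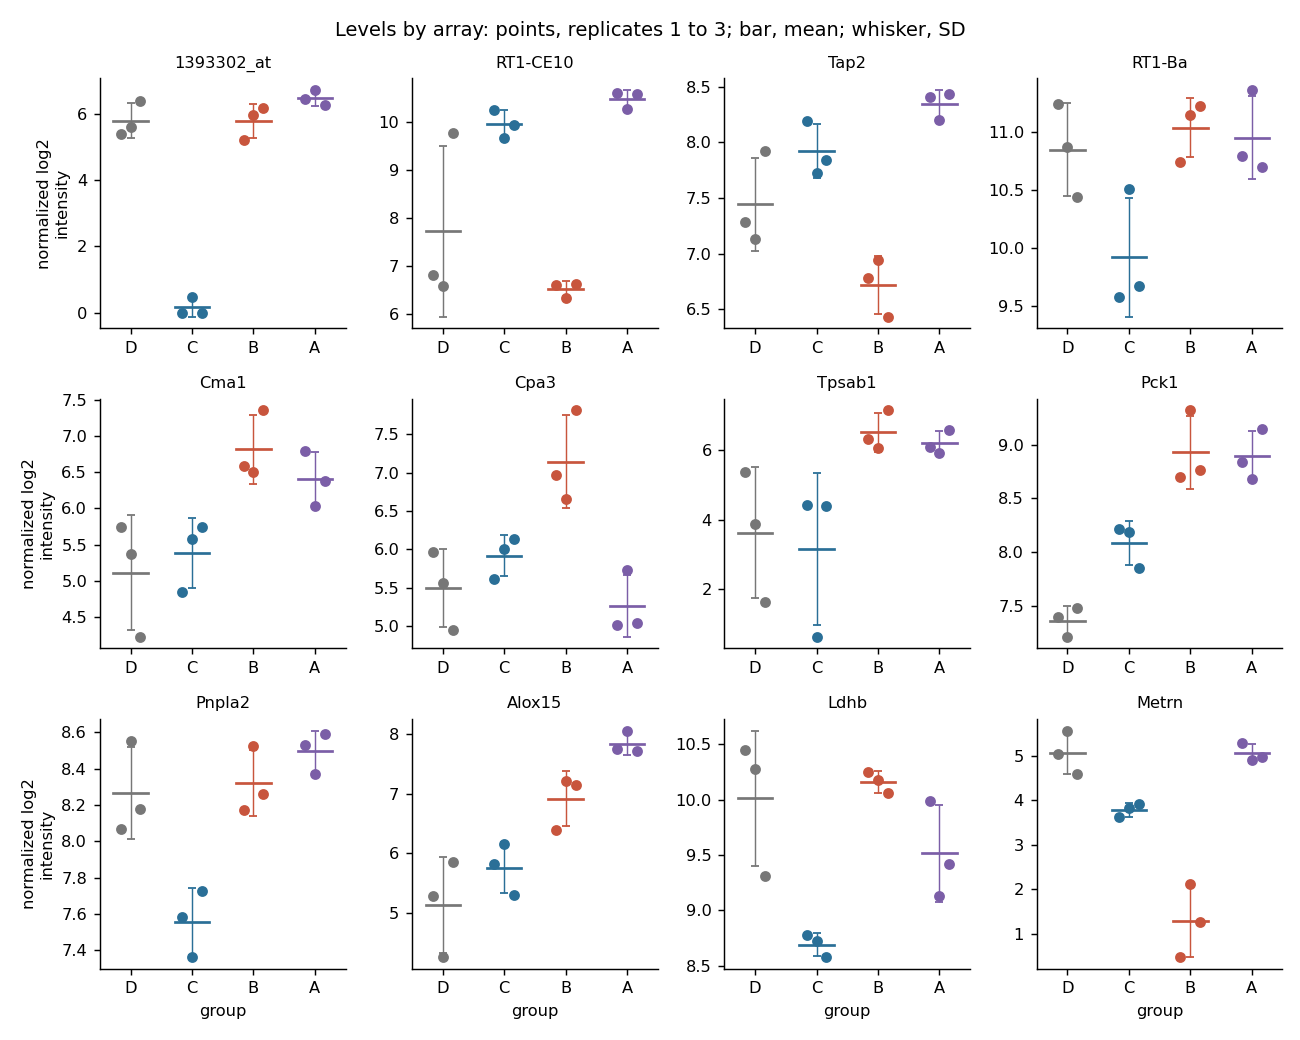
Normalized log2 intensity (vertical axes) of 12 probe sets in each pup by group (horizontal axes), with the mean as a bar and the SD as a whisker. At 1393302_at group C stands apart from all other groups, and at RT1-CE10 and Tap2 group D replicate 3 reads like groups C and A.

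Genes of glycerolipid synthesis and lipolysis leaned higher in group B without passing. Pck1, whose enzyme makes the glycerol backbone of fat in adipocytes, was at 8.70, 9.32 and 8.77 in group B against 8.22, 8.18 and 7.85 in group C. The difference was 0.85 (standard error 0.18, interval 0.46 to 1.23, adjusted p = 0.371), with no overlap. Pups of group D were lower still, at 7.21 to 7.48, and those of group A were at 8.68 to 9.15. Against group D the difference of Pck1 was 1.57 in group B (adjusted p = 0.0144 from limma) and 0.72 in group C (adjusted p = 0.144 from limma). Pnpla2, the lipase that starts the breakdown of stored fat, was at 8.17, 8.53 and 8.26 against 7.58, 7.36 and 7.73 (0.76, interval 0.44 to 1.09, adjusted p = 0.312). Its level in groups A and D, 8.07 to 8.59, was that of group B. The 2 genes were those of the 15 on the list of glycerolipid synthesis and lipolysis that reached an unadjusted p under 0.05. Of all 14217 genes 1.96% were higher at that p. In all 14 of the 15 were higher in group B, beside 50.9% of all genes, and the median was 0.40, beside 0.005. Cidec of the lipid droplet was at 0.60, the hormone-sensitive lipase Lipe at 0.56 and Dgat2, which completes triacylglycerol, at 0.53. The genes were read in the same pups and are not independent, so these counts are a description. Lpl, which takes up fatty acids from lipoproteins, differed by 0.07 (interval -0.36 to 0.51).

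The adipocyte list, which shares 6 genes with the glycerolipid list, had all 16 members higher in group B, with a median of 0.30. Over all 14217 genes 50.9% were higher. At an unadjusted p under 0.05 were 2 of the 16, beside 1.96% of all genes higher at that p. These were Cfd, the adipocyte complement factor adipsin, at 9.19, 10.20 and 9.43 against 8.53, 8.53 and 9.01 (0.92, interval 0.09 to 1.75), and the Wnt inhibitor Sfrp5, within background in all of group C and at least 1.82-fold higher in group B. The hormone gene Adipoq differed by 0.44 (interval -0.11 to 1.00) and the fatty acid carrier Fabp4 by 0.19 (interval -0.17 to 0.54). The summed adipocyte intensity was 6367 to 10011 in group B and 5665 to 7142 in group C, with 7701 to 10640 in group D, and its part in the differences of Pck1 and Pnpla2 was not tested. Group B replicate 2 was the pup with the most: without it the medians were 0.11 for adipocyte genes and 0.18 for glycerolipid genes, and Pck1 kept a difference of 0.65.

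PPAR targets and oxidation genes did not follow that lean. Of 24 genes, 14 were higher and 10 lower with a median of 0.03, and 21 had an interval inside 2-fold. Cpt1a, which admits fatty acids to the mitochondrion, was lower at 8.01, 7.81 and 7.79 against 8.39, 8.31 and 8.40 (-0.50, adjusted p = 0.82), and the thiolase Acaa2 at 8.50, 8.57 and 8.25 against 8.91, 8.78 and 9.05 (-0.47, adjusted p = 0.895). Hadhb, the brightest of the list with Acsl1, differed by 0.03. In fatty acid and sterol synthesis 18 of 21 genes had an interval inside 2-fold and the median was 0.02, and the fatty acid synthase Fasn differed by -0.11. Acacb, a carboxylase that curbs oxidation, read -1.98 from values mostly within background. The desaturase Scd was at 9.28, 9.86 and 9.38 in group B against 10.15, 10.75 and 10.51 in group C, with no overlap (-0.96, interval -2.34 to 0.42).

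**Figure D5:**
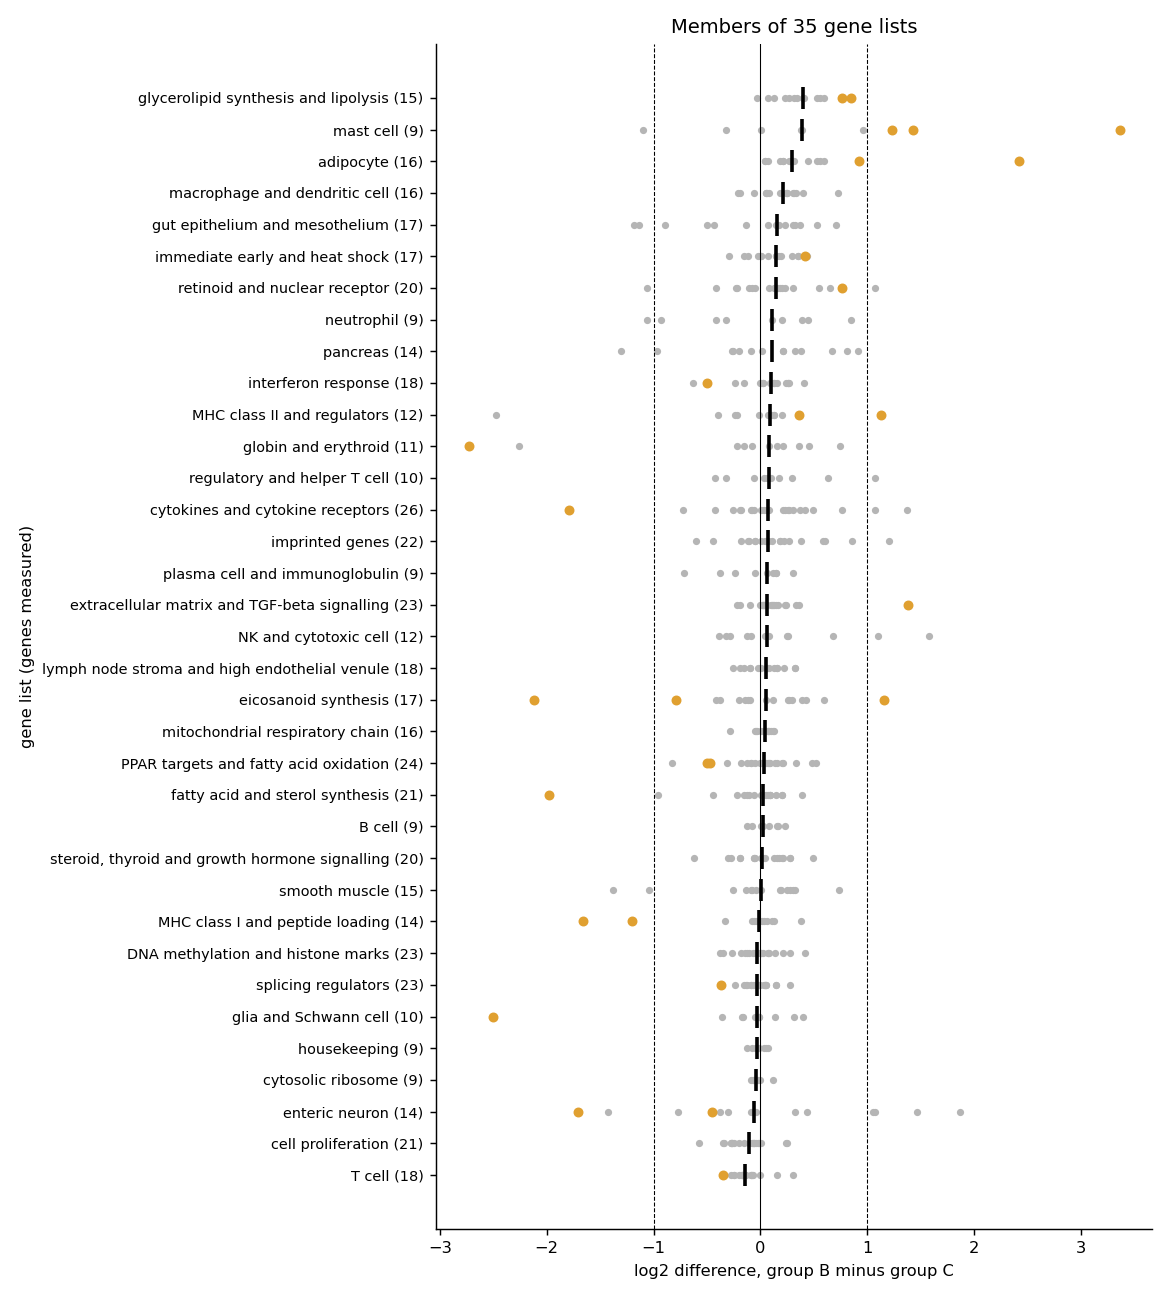
Difference between groups B and C (log2, horizontal axis) for each member of 35 gene lists (vertical axis, with the number of genes measured), ordered by the median, which is the black bar. Points in orange are at an unadjusted p under 0.05, dashed lines mark 2-fold, and no point has an adjusted p under 0.05.

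Lymphocyte genes differed little, and here the intervals were narrow. All 9 B cell genes had an interval inside 2-fold, from -0.13 to 0.23 in difference, with Ms4a1 at 0.02 (interval -0.21 to 0.25) and the complement receptor Cr2 at -0.08. All 18 T cell genes did so as well. Such an interval was found for 64.2% of all 14217 genes and for 96.8% of probe sets with a mean of 8 or more. These full counts thus lie near the share of bright probe sets in general. Lef1, a transcription factor of naive T cells, was at 9.64, 9.98 and 9.76 against 10.06, 10.31 and 10.07 (-0.35, interval -0.61 to -0.09). It was the 1 T cell gene at an unadjusted p under 0.05, where 1.93% of all 14217 genes were lower. In all 16 of 18 T cell genes were lower and the median was -0.15, with -0.05 on deposited values, where the median of all probe sets was 0.14. Antibody-forming cells gave 7 of 9 genes inside 2-fold. The exceptions were Tnfrsf17, the receptor BCMA, at -0.72 (interval -1.69 to 0.26), and Jchain, the joining chain of IgA and IgM, at -0.38 (interval -1.06 to 0.30). The proliferation marker Mki67 differed by -0.28 and cyclin Ccna2 by -0.58, and 18 of 21 proliferation genes were lower in group B, with a median of -0.11. On deposited values that median was 0.03, still below the 0.14 of all probe sets. Beside these T cell and proliferation counts, 50.9% of all 14217 genes were higher in group B.

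Helper and regulatory T cell genes and cytokines gave no call. Icos and Bcl6 of follicular helper cells differed by 0.04 and 0.17, the inhibitory receptor Ctla4 by 0.64 (interval -0.22 to 1.49) and the cytokine Il10 by 1.07 from levels mostly near background. Of 26 cytokine and receptor genes 1 reached an unadjusted p under 0.05, the interferon gene Ifng, read at 1.26, 0.59 and 0.08 against 2.85, 2.33 and 2.12, all within background, so no fold is given. At that p 1.93% of all 14217 genes were lower. Ltb and Ifngr1, the brightest of the list, differed by -0.08 and 0.08. Among 18 interferon-response genes, the antiviral Mx1 was lower at 8.23, 8.65 and 8.31 against 8.85, 8.90 and 8.92 (-0.50) and Irf1 differed by 0.24. The lysozyme Lyz2 and Cd83 of dendritic cells differed by 0.05 each, and 13 of 16 macrophage and dendritic cell genes had intervals inside 2-fold. Neutrophil calprotectin S100a9 was at 5.57, 4.35 and 4.31 against 5.31, 7.13 and 4.96, with overlap. Cytotoxic cell genes gave a median of 0.06, with perforin Prf1 at -0.12 (interval -0.41 to 0.17).

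Gene groups that a prenatal exposure is often asked about showed no member passing. Imprinted genes, which are expressed from 1 parental copy and shape fetal growth, had 0 of 22 at an unadjusted p under 0.05, and 12 had intervals inside 2-fold. Over all 14217 genes 1.96% were higher and 1.93% lower at that p, so 0 of 22 lies near the share of all genes. Intervals inside 2-fold were found for 64.2% of all genes. Igf2, the fetal growth factor, was at 6.24, 6.20 and 6.25 in group B against 5.66, 5.60 and 5.64 in group C. The groups did not overlap, yet the pooled variance left an interval of -0.25 to 1.46 about the difference of 0.60. H19, transcribed beside it from the other parental copy, differed by 0.38 (interval -0.55 to 1.31), and Gnas by 0.11 (interval -0.10 to 0.33). Enzymes and readers of DNA methylation and histone marks had 0 of 23 at an unadjusted p under 0.05 and 21 with an interval inside 2-fold. The maintenance methyltransferase Dnmt1 differed by -0.03 (interval -0.31 to 0.24), the de novo enzyme Dnmt3a by -0.37 (interval -0.93 to 0.18) and Dnmt3b by 0.42 (interval -0.29 to 1.12).

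Hormone and receptor genes looked similar. None of 20 genes of steroid, thyroid and growth hormone signalling reached an unadjusted p under 0.05, with Tsc22d3, a glucocorticoid-induced gene, at -0.28 (interval -0.63 to 0.07). Of 20 retinoid and nuclear receptor genes, 1 did so, the retinoid X receptor Rxrg at 0.77. At that p 1.96% of all 14217 genes were higher and 1.93% lower, so both counts lie near those shares. The immediate early phosphatase Dusp1 differed by 0.42, the splicing factor Hnrnpa1 by -0.37 and the secreted matrix protein Ccn1 by 1.38 (interval 0.10 to 2.66). All 16 genes of the respiratory chain, all 9 of the cytosolic ribosome and all 9 housekeeping genes had intervals inside 2-fold, with medians of 0.05, -0.04 and -0.04. Such intervals were found for 96.8% of probe sets with a mean of 8 or more.

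Gut wall and other neighbouring tissue differed little between the groups. The summed intensity of 15 smooth muscle genes was 2246 to 2589 in group B and 2054 to 2449 in group C, against 2470 in group D replicate 3 and up to 13677 in that group. For 14 enteric neuron genes the sums were 173 to 200 and 179 to 202, and for 17 genes of gut epithelium and mesothelium 361 to 455 and 356 to 449. Of the neuron genes, Ret, the receptor of glial growth factors, differed by -0.46 and the neuropeptide Vip by -1.71 from values mostly within background. Erythroid sums were 2581 to 3581 and 2610 to 3196, and of 14 pancreas genes 5 were within background in all of group B and 4 in all of group C. Of the genes the study selected as network nodes, Grb2, an adaptor of growth factor receptors, differed by -0.02 (interval -0.24 to 0.20) on its brightest probe set and was the 1 of 7 with an interval inside 2-fold. The matrix gene Ccn2 was at 6.82, 6.56 and 6.77 against 6.28, 6.10 and 6.70, and the protease inhibitor Timp1 at 7.13, 6.75 and 6.74 against 6.86, 6.60 and 6.47. Both overlapped between the groups. The actins Actg2 and Acta2 differed by 0.19 and 0.25, the neuropeptide Gal by -0.30 and the vesicle protein Syt1 by 1.07 from low levels. Of 78 measured genes that the study lists as changed under every diet, a list it chose on these samples, 0 were higher and 1 was lower at an unadjusted p under 0.05, the median was 0.13 and 33 had intervals inside 2-fold. Over the 38 lists, 591 genes were measured, and 13 were higher and 15 lower at an unadjusted p under 0.05. Of all 14217 genes 1.96% were higher and 1.93% lower at that p. None of the 591 passed after adjustment, and 19 lists had no member at the unadjusted threshold.

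The largest differences among genes with 1 symbol and no overlap came largely from dim probe sets. By the naming rule 248 probe sets were eligible as higher in group B and 257 as lower, and the 15 largest of each were taken. Their adjusted p ran from 0.195 to 1, so none passed. In 12 of the 15 genes higher in group B every pup of group C was within background, and in 11 of the 15 lower genes every pup of group B was, and their folds are bounds, from at least 1.26-fold to at least 3.36-fold.

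Higher in group B were the antiviral gene Oas1b (at least 1.91-fold), the neutrophil chemokine Cxcl3 (at least 2.21-fold), the interleukin-17 receptor subunit Il17rc (at least 3.12-fold), Elfn2 (at least 2.39-fold), Medag of adipocyte differentiation (at least 1.83-fold) and Sfrp5. Oas1b was at 3.84, 3.44 and 3.53 against 0.00, 0.48 and 0.00, close to the background of 2.33 to 2.93. The others were the developmental factor Pax2, the ion channel gene Unc80, the Mediator subunit Med27, the neuropeptide gene Calca, the urothelial Upk3a and Wdr95, with bounds of 1.26 to 1.75, and Tpsab1, Prkaa2 and Krt15, where 1 or more pups of group C were above background. Lower in group B were Zfp523 (at least 3.36-fold), LOC100910237 (at least 2.95-fold), the G protein subunit Gnaz (at least 2.36-fold), the exchange factor Rasgrf1 (at least 2.28-fold), Metrn, a factor of glial differentiation and axon growth (at least 2.19-fold), and the aldehyde oxidase Aox4 (at least 2.16-fold). Metrn was at 0.48, 2.11 and 1.26 against 3.62, 3.81 and 3.92, with groups A and D at 4.59 to 5.56. The rest were Cpxm2, the kinases Wnk2 and Sbk1, the hemoglobin chaperone Ahsp and Tent5b, with bounds of 1.40 to 1.75, and RT1-CE10, RT1-CE16, Myrip and Sectm1b, where at least 1 pup of group B was above background.

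Other probe sets of these genes mostly showed no such difference. Of the 30 genes, 14 had another probe set, 24 in all, of which 14 differed in the same direction and 10 in the opposite one, and 1 of the 24, for Myrip at -1.27, reached an unadjusted p under 0.05. The Mediator gene Med27 was 0.28 higher in group B on its bright probe set, at 7.23 and 6.94. For the kinase Sbk1 the bright probe set, at 6.56 and 6.31, was 0.25 higher, opposite to the dim one at -2.94, and for Wnk2 the other probe set read 1.71 against -3.00.

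The count of calls depended on which pups set the variance. Without group D replicate 3, 14 probe sets were called between groups B and C in place of 1, and in a fit of groups B and C alone 10 were. In the first of these fits Tap2 (adjusted p = 0.0131), RT1-CE12 (0.00471), Ldhb (0.00605) and Lysmd4 (0.0366) passed along with RT1-CE10. So did the chemokine Ccl17, which draws T helper cells, at 7.19, 6.71 and 6.92 in group B against 8.47, 8.30 and 8.53 in group C, with adjusted p = 0.00187 and, in the fit of groups B and C alone, 0.0212, but 0.668 with all arrays. Without group C replicate 3, the pup high in Xist, 1 probe set was called, and without the 3 arrays high in Xist 6 were. In every one of these fits 1393302_at was among the calls.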

How the data were processed

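RNA of mesenteric lymph nodes was hybridised to Affymetrix Rat Genome 230 2.0 arrays, 1 per pup. The authors deposited MAS5 signal intensities on a linear scale, per the labels and the submitters' processing notes. Array medians differ in these values, which affects direction. Any scaling between arrays, the version of MAS5 and any background step are not given in the sources used here. From these values 30 zeros took the smallest positive value, log2 values were quantile normalized over 12 arrays (6 of them groups B and C), and values under 1 were raised to 1. Of 31099 probe sets 57 controls were left out. Symbols came from the array's annotation, checked against the genes of assembly GRCr8, with 20826 probe sets having 1 symbol, 436 several and 9780 none. Lists use the brightest probe set of each of 14217 genes. Groups were fitted in limma 3.58.1 under R 4.3.3, 1 mean per group over all 12 arrays, with moderated variances following a trend over level, two-sided, and adjusted by Benjamini-Hochberg over 31042 probe sets. Probe sets were called where the adjusted p was below 0.05 with at least 2-fold between means. Background was the 95th percentile of 27 spike probe sets. If the dimmer group was wholly within it, the values there were set to it and the ratio is given as a lower bound. The number of arrays limits the precision. Counts were not available, so the depth is signal over background alone.

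Text names were set by a rule: probe sets passing after adjustment, the 15 largest rises and falls among probe sets with 1 symbol, no overlap, an unadjusted p under 0.05 and the brighter group above background, the study's nodes and Pck1, and list members at an unadjusted p under 0.05 or else the brightest and the most different. Further names were picked with their values in view. The members and lists were chosen with earlier results of these data known. Alternatives used the values as deposited, the 75th percentile as centre, normalization of the 6 arrays alone, a floor of 32 and leaving out the dimmest 40%. Others were no trend, a fit of 2 groups, unmoderated or unadjusted p, 1 probe set per gene, a replicate block and leaving out each array. Leaving out the 3 arrays high in Xist was added after seeing the data. The test was tested on simulated data. Figures used matplotlib 3.10.9.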

Additional observations from a re-analysis of the deposited data

Results flagged for a closer look

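The probe set 1393302_at was the one result that differed between groups B and C at an adjusted p under 0.05, by a test of the difference itself. Group B minus group C was 5.63 on the log2 scale (adjusted p = 3.49e-05 from limma), higher in 3 of 3 pups. The annotation used here gives it no gene, and all 3 pups of group C lay within background while every pup of groups A, B and D was above it.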

How the results depend on the processing

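The 1 call became 0 with 1 probe set per gene, where 1393302_at has no gene and is not tested, 2 with the values as deposited, 3 without a trend of the variance, 4 with the 6 arrays normalized alone, 10 in the fit of groups B and C, and 6 without the 3 arrays high in Xist, and between 1 and 14 when single arrays were left out, with 14 without group D replicate 3. The 760 probe sets at an unadjusted p and 2-fold became 282 with 1 per gene, 111 without the dimmest 40%, 51 with a floor of 32 and 1241 without a fold, and 722 to 910 without single arrays. The share higher in group B, 52.8% of 760, was 77.6% as deposited and 64.7% with centring on the 75th percentile, while the median of all probe sets was 0.14 as deposited. The median absolute difference of 0.20 was 0.24 as deposited, 0.16 with 1 per gene, 0.13 without the dimmest 40%, 0.0108 with a floor of 32, and 0.20 to 0.23 without single arrays. The share of intervals inside 2-fold, 48.0%, was 80.7% without the dimmest 40%, 95.8% with a floor of 32 and 42.1% to 52.0% without single arrays. The distance ratio of 1.008 was 0.996 as deposited and 0.994 to 1.03 without single arrays of groups B and C. It was 1.08 with a floor of 32 and 1.06 without the dimmest 40%. List genes passing were 0, or 1 (Tap2) without group D replicate 3, and 0 without any other array. No named gene that passed changed direction, and 1393302_at was 0.79 and did not pass with the floor of 32. The replicate block left 1 call and 762 probe sets at an unadjusted p: the labels' replicate numbers pair the pups in name only, since deviations of same-numbered pups correlated at 0.02, -0.01 and 0.01 across probe sets. With 3 pups per group, dim probe sets limit what can be seen: signal over background and not depth sets their wide intervals. The causes of these changes were not tested, and the litter and sex of each pup are not given in the sources used here.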

Other observations

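Several probe sets without a gene had wide gaps between groups B and C, and were chosen after their values were seen. At 1380129_at the pups of group B read 7.16, 7.76 and 7.62 and those of group C 4.82, 4.24 and 4.22, with 4.68, 7.05 and 4.96 in group A and 6.83 to 7.35 in group D. At 1379496_at they were 6.89, 7.17 and 7.55 against 3.99, 3.17 and 4.27, with 4.33, 7.25 and 4.22 in group A and 6.17 to 7.31 in group D. Group A replicate 2 thus read like groups B and D at both, and the other two pups of group A read like group C. At 1398692_at group B, at 4.43, 3.79 and 3.67, lay below group C, at 7.87, 6.94 and 8.10. At 1390722_at group B lay above group C, at 8.04, 8.75 and 8.21 against 5.98, 5.90 and 6.19. None of these 4 passed with all arrays. The adjusted p of 1380129_at ran from 0.000541 to 0.513 over its alternatives and that of 1379496_at from 0.00651 to 1.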
